A study of Mus musculus with 12 samples.

Results

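The BCL2 family of apoptosis regulators was followed through 10 of its genes, taken by symbol from the gene count tables of white adipose tissue (WAT, 26639 features) and of cultured adipocytes (22851 features). The 10 are the effectors Bax and Bak1, the guardians Bcl2, Bcl2l1 and Mcl1, and the BH3-only genes Bcl2l11, Bbc3, Pmaip1, Bid and Bad. All 10 were listed in both tables and passed the filter on low counts in every comparison. The mice lacked Xap5, a nuclear protein encoded by Fam50a, in cells that had switched on adiponectin (Adiponectin-cKO), and the series addresses its role in adipocyte development and death. The 4 groups held 3 libraries each: WAT of wild-type (WT) mice and of cKO mice at postnatal day 42, and WT and knockout (KO) adipocytes at day 8 of adipogenic induction. The cultures were grown from pre-adipocytes of newborn white fat and induced with insulin, dexamethasone and IBMX in all groups, then kept in insulin. Because the adiponectin promoter acts late in fat cell differentiation, other cells of the tissue and undifferentiated cells of the culture keep the gene. Nothing in the labels ties a library to its own animal or dish. The p-values therefore reflect the spread among the libraries alone, and part or all of that spread may be technical.

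BCL2 family proteins decide whether the outer membrane of the mitochondrion stays closed. BAX and BAK (Bak1) form pores in it that release cytochrome c, and BCL2, BCL-xL (Bcl2l1) and MCL1 hold them back. BH3-only proteins such as BIM (Bcl2l11), PUMA (Bbc3), NOXA (Pmaip1), BID and BAD neutralise the guardians or activate the effectors, and many of them are controlled through transcription. In white fat, dying adipocytes are typically ringed by macrophages.

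Promoter sequences from RefSeq (GRCm38.p6) were matched by symbol for 9 of the 10 members. They are shown for Bcl2l11 and Mcl1, which were higher in cKO WAT, and for Bad, which was lower. Each line gives the 250 bases before the most upstream start, 5′ to 3′ on the strand of the gene, and capitals mark motif matches on either strand. The windows lie on the plus strand at chr2:128125788-128126037 for Bcl2l11, chr3:95658471-95658720 for Mcl1 and chr19:6941611-6941860 for Bad, and no GENCODE exon lies in them.
Bcl2l11: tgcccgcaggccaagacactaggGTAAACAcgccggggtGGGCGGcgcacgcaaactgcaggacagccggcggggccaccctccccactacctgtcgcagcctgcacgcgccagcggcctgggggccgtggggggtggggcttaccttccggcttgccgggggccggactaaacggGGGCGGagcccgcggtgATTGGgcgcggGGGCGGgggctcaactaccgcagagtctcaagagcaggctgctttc
Mcl1: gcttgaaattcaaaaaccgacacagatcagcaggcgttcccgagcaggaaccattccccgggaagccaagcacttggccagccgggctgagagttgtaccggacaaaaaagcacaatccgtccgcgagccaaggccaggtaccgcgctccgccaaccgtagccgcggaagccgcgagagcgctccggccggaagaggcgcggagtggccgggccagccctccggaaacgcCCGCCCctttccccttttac
Bad: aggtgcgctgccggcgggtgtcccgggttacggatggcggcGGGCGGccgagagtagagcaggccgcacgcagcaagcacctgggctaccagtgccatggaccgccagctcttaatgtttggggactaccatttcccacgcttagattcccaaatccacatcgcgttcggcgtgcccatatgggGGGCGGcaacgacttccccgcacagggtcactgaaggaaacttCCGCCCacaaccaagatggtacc
The GC box (GGGCGG) was in 7 of the 9 windows, all except those of Bak1 and Bcl2l1, against 33.0% of 27025 windows of the same length. GC content was 47.6% in the Bcl2l1 window and 54% to 76.4% in the other members, against a median of 52% over all windows, and its part in the GC box count was not tested. It was thus in the windows of members that were higher and of one that was lower. The Bcl2l11 window alone held the forkhead motif (TGTTTAC), found in 3.06% of all windows, and the CCAAT box, found in 34.5%. The E-box (CACGTG) was in the Bax window alone, against 6.04% of all. No window of the 9 held the AP-1 motif (TGANTCA), the cAMP response element (TGACGTCA) or the CHOP-ATF composite motif (TGATGNAA), which 6.85%, 1.60% and 3.53% of all windows held. No motif searched contains another, and a match describes these bases only.

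Libraries held 28844370 to 33997204 counts in WAT and 10863158 to 21773610 in culture. Levels are CPM, counts scaled to a common library total after that total was adjusted by TMM, for WAT and culture separately. Fam50a had 35.3, 32.5 and 36.5 CPM in WT WAT and 23.3, 16.8 and 28.9 in cKO WAT. With TMM scaling Fam50a thus fell to 0.661 of WT (adjusted p = 0.0395). Its counts overlapped, at 811, 778 and 884 in WT and 977, 682 and 1275 in cKO, so the fall rests on that scaling. The TMM factors were 0.781 to 0.796 in WT WAT and 1.23 to 1.30 in cKO WAT. In culture Fam50a had 57.9, 52.0 and 45.2 CPM in WT and 46.2, 42.9 and 41.1 in KO. The difference did not pass (log2 fold change -0.26 ± 0.12 SE, adjusted p = 0.134). Summed adipocyte markers, 8 genes that include Adipoq, Cfd and Lep, ran from 54970 to 58721 CPM in WT WAT and from 7126 to 17988 in cKO WAT. The 8 macrophage markers summed to 365 to 563 CPM in WT WAT and 1815 to 3957 in cKO WAT, and 2040 to 3155 in the cultures. None of either list was at 0 in all libraries of a group. Epithelial markers stood at 640 CPM in cKO replicate 3 and at most at 28.8 in every other WAT library, and skeletal muscle markers at 1627 in WT replicate 3 and 1251 in cKO replicate 1.

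In cKO WAT, Bcl2l11, Mcl1 and Pmaip1 were higher than in WT, Bak1 and Bad were lower, and the other 5 members did not pass the threshold of adjusted p under 0.05. The 3 of 10 that rose stand beside 28.2% of 16293 genes tested that rose, and the 2 that fell beside 24.2% that fell, so the shares are near those of all genes. The median log2 fold change of the members was 0.21, and that of all genes tested was 0.12. Groups did not overlap for 6 of 10 members, the 5 called and Bax, beside 64.4% of all genes tested. In tissue, fewer cells of a type and less RNA per cell cannot be told apart.

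**Figure D1:**
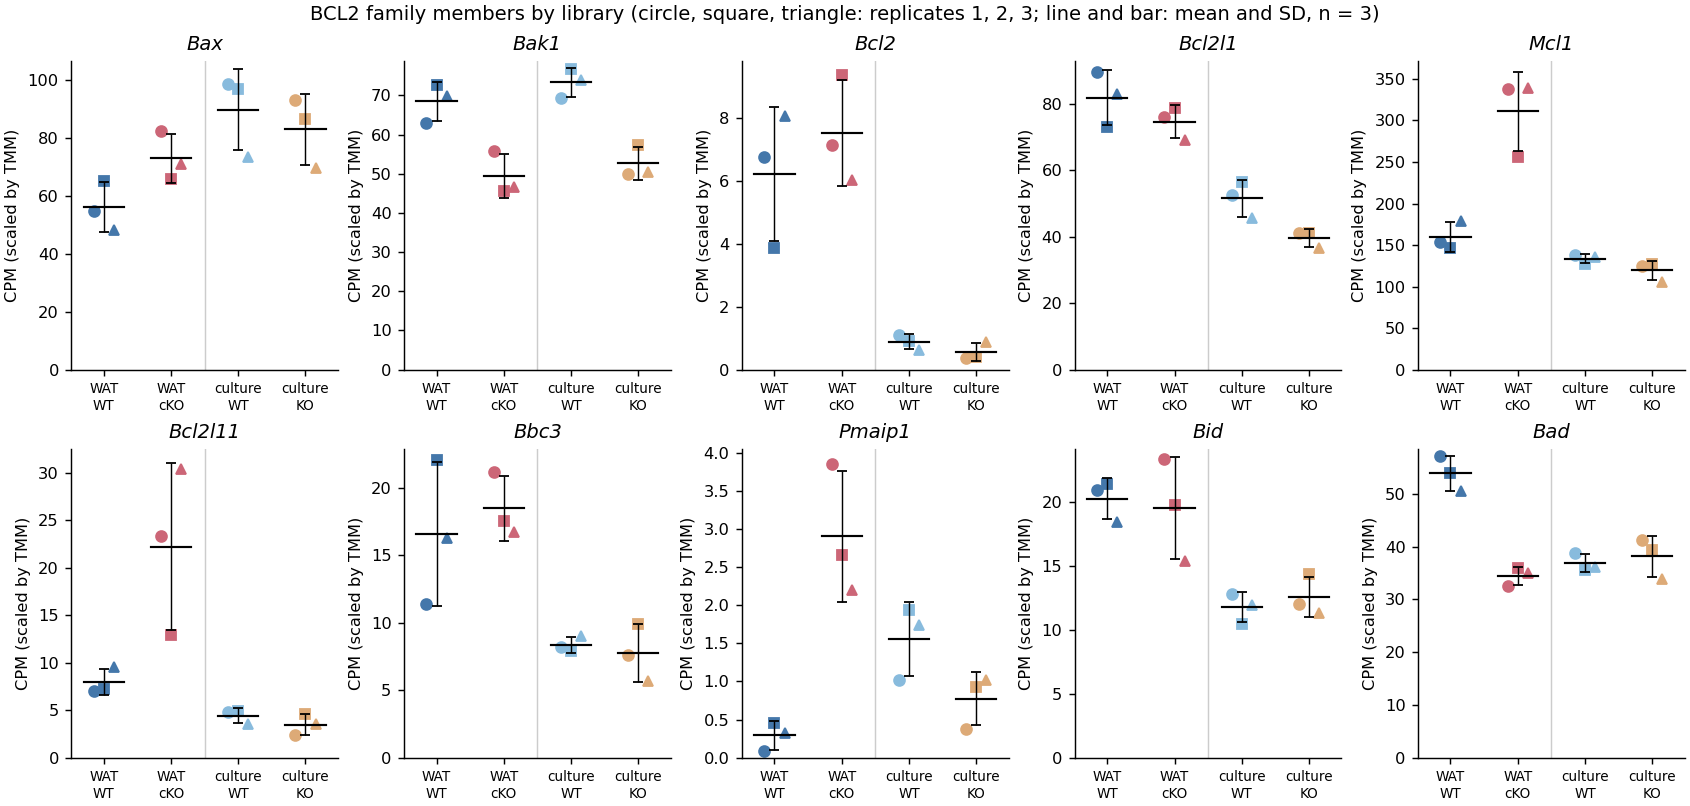
CPM of each member (vertical axes from 0) in the 12 libraries of 4 groups, with the mean and SD of 3 libraries. Mcl1, Bcl2l11 and Pmaip1 lie higher in all 3 cKO WAT libraries than in any WT one, Bad and Bak1 lie lower, and the culture groups overlap for all members except Bak1 and Bcl2l1.

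Among the effectors, Bax (chromosome 7, 45461697 to 45466898) had 54.9, 65.3 and 48.3 CPM in WT WAT and 82.4, 65.9 and 71.0 in cKO WAT. The groups stood apart by little, since the highest WT library and the lowest cKO library were close. The log2 fold change of 0.38 ± 0.16 (SE) did not pass (adjusted p = 0.0743), but it did when scaled by library size only (1.06), with a length and GC trend removed (0.94) or in 1 fit over all 4 groups (0.42). Bak1, which encodes the effector that sits in the membrane before any signal (chromosome 17, 27019810 to 27029009), had 63.0, 72.6 and 69.8 CPM in WT and 55.8, 45.7 and 46.5 in cKO. All cKO libraries were below all WT libraries, and Bak1 fell to 0.720 of WT (log2 -0.47 ± 0.13, adjusted p = 0.0196). Leaving out a single library ended that call in 3 cases: adjusted p was 0.0652 when WT replicate 2 was dropped, 0.0612 for WT replicate 3 and 0.05003 for cKO replicate 3. Of the exon bases of Bak1, 25.5% are shared with Ggnbp1 on the opposite strand, which fell by 1.65 on the log2 scale in WAT, and the strand setting of the counting is not given in the sources used here.

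Among the guardians, Mcl1 (chromosome 3, 95658788 to 95663176), whose protein turns over fast, had 153, 146 and 179 CPM in WT WAT and 338, 256 and 339 in cKO WAT. Every cKO library exceeded every WT library, with replicate 2 the lowest of the cKO group. Mcl1 rose 1.95-fold (log2 0.96 ± 0.16, adjusted p = 0.00290). Bcl2, the founding guardian (chromosome 1, 106538178 to 106714274), had 6.75, 3.88 and 8.06 CPM in WT and 7.14, 9.36 and 6.05 in cKO, with overlapping groups and adjusted p = 0.501. Bcl2l1, the BCL-xL gene (chromosome 2, 152780668 to 152831728), had 89.6, 73.1 and 82.9 CPM in WT and 76.1, 78.6 and 69.2 in cKO. These groups overlapped as well (log2 -0.13 ± 0.13, adjusted p = 0.400). Of the guardians, Mcl1 alone passed in WAT, and whether its change differed from those of Bcl2 and Bcl2l1 was not tested.

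Among the BH3-only genes, Bcl2l11 (chromosome 2, 128126038 to 128162547), which encodes a binder of all main guardians, had 7.06, 7.26 and 9.51 CPM in WT WAT and 23.3, 12.9 and 30.4 in cKO WAT. The groups did not overlap, but the cKO libraries were spread widely, with replicate 2 again the lowest. Bcl2l11 rose 2.80-fold (log2 1.48 ± 0.32, adjusted p = 0.00729). Pmaip1 (chromosome 18, 66458533 to 66465565), whose protein binds MCL1 in preference, was the least abundant member, at 2, 11 and 8 counts in WT WAT and 162, 108 and 97 in cKO WAT. As CPM these were 0.0871, 0.459 and 0.331 in WT and 3.86, 2.65 and 2.20 in cKO, so the lowest cKO library was well above the highest WT library. Pmaip1 rose 9.78-fold (log2 3.29 ± 0.59, adjusted p = 0.00378), from a WT level that rests on few counts.

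Bad, whose protein is held in check by phosphorylation downstream of insulin and AKT (chromosome 19, 6941861 to 6951899), had 57.1, 54.0 and 50.5 CPM in WT WAT and 32.6, 35.8 and 34.9 in cKO WAT. The groups were narrow and far apart, and Bad fell to 0.639 of WT (log2 -0.65 ± 0.11, adjusted p = 0.00324). Gpr137 on the opposite strand shares 20.5% of its exon bases and fell by 0.78. Bbc3 (chromosome 7, 16308393 to 16318205), a gene known as a target of p53, had 11.4, 22.03 and 16.3 CPM in WT and 21.2, 17.5 and 16.7 in cKO, with adjusted p = 0.623. Bid (chromosome 6, 120891930 to 120916853), which links death receptors to the mitochondrion once caspase 8 cuts it, had 21.0, 21.4 and 18.4 CPM in WT and 23.4, 19.8 and 15.4 in cKO, with adjusted p = 0.818. Both overlapped between groups. The WAT table also lists a numbered second Bid row, at 2.60 to 5.76 CPM in WT and 0.816 to 4.18 in cKO. Bcl2l13 on the opposite strand shares 17.7% of the exon bases of Bid.

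The rises of Bcl2l11, Mcl1 and Pmaip1 passed under all 15 alternatives run, with log2 fold changes of 1.18 to 2.17, 0.88 to 1.65 and 2.84 to 3.97. The falls of Bad and Bak1 depended on the scaling. Scaling by library size only moved the median of all genes from 0.12 to 0.80. Bad was then at 0.03 and Bak1 at 0.21, neither past the threshold. Of the 10 members, 8 were called higher and 0 lower, beside 8838 and 1427 of 16293 genes. With a trend of transcript length and GC content removed, Bad was at -0.17 (adjusted p = 0.267) and Bak1 at -0.08 (0.638). Then 4 of 10 members were called higher and 0 lower, beside 3994 and 3462 of 16293 genes. Bad had the lowest value of the 10 members under all 3 of these scalings.

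**Figure D2:**
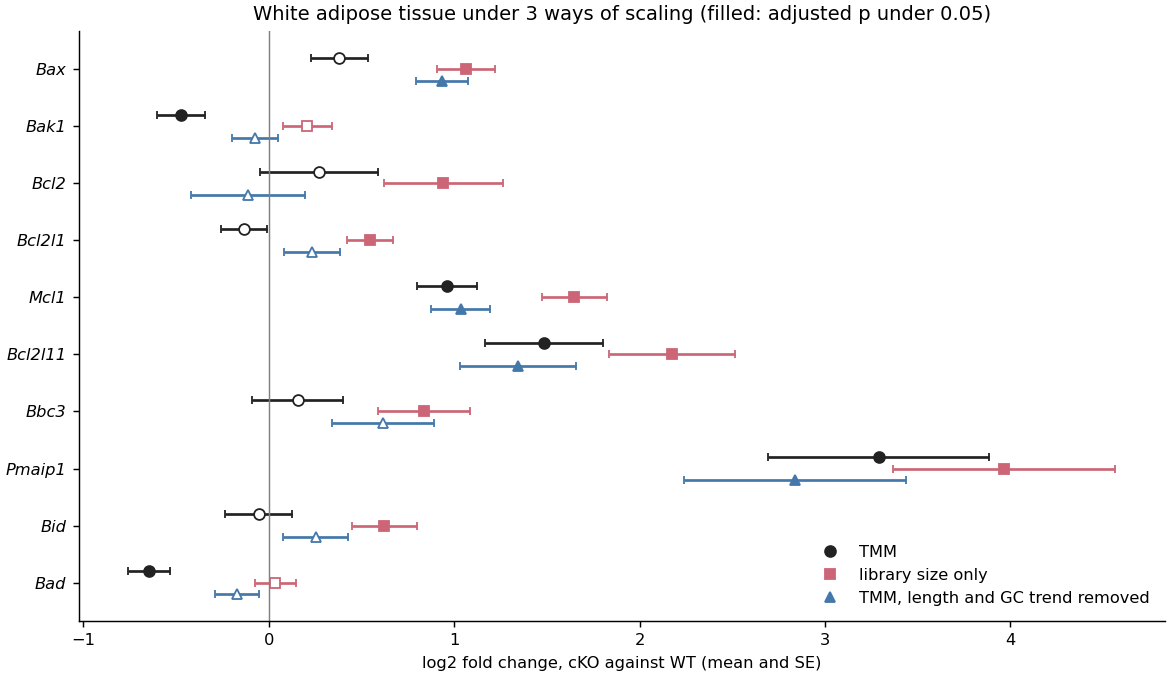
Log2 fold change of each member in cKO against WT WAT (horizontal axis, mean and SE) under 3 ways of scaling, filled where adjusted p was under 0.05. Bcl2l11, Mcl1 and Pmaip1 are filled and above 0 in all 3, while Bad and Bak1 are filled and below 0 under TMM scaling alone.

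The cKO WAT libraries with more macrophage and less adipocyte marker RNA were also those with more Bcl2l11 and Mcl1. Macrophage markers summed to 3602, 1815 and 3957 CPM in cKO replicates 1 to 3 and adipocyte markers to 10067, 17988 and 7126. Bcl2l11 followed that order of libraries. Mcl1 was lowest in replicate 2 and nearly equal in replicates 1 and 3 (338 and 339 CPM). Pmaip1, highest in replicate 1 and lowest in replicate 3, did not follow it. Fibroblast (3727, 2170 and 4076 CPM), cell division (120, 75.4 and 143) and epithelial markers had the order of the macrophage markers. Endothelial, Schwann cell, skeletal muscle and other leukocyte markers did not. In WAT 7 of 8 macrophage markers rose and 7 of 8 adipocyte markers fell, 6 of 8 fibroblast markers and 8 of 8 cell division markers rose, and 5 of 6 endothelial markers fell. Of the Schwann cell markers 3 of 6 rose, and of other leukocyte markers 4 of 11 tested. Of all genes tested, 28.2% rose and 24.2% fell. With library size only, 1 endothelial marker rose and 1 fell, while 7 macrophage markers still rose and 6 adipocyte markers still fell. Of 16293 genes, 8838 then rose and 1427 fell. The part of these cell types in the members' changes was not tested. The cultures had macrophage sums within the cKO WAT range, at Bcl2l11 levels of 2.35 to 4.96 CPM and Mcl1 levels of 106 to 138 CPM, in a table that was scaled separately.

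**Figure D3:**
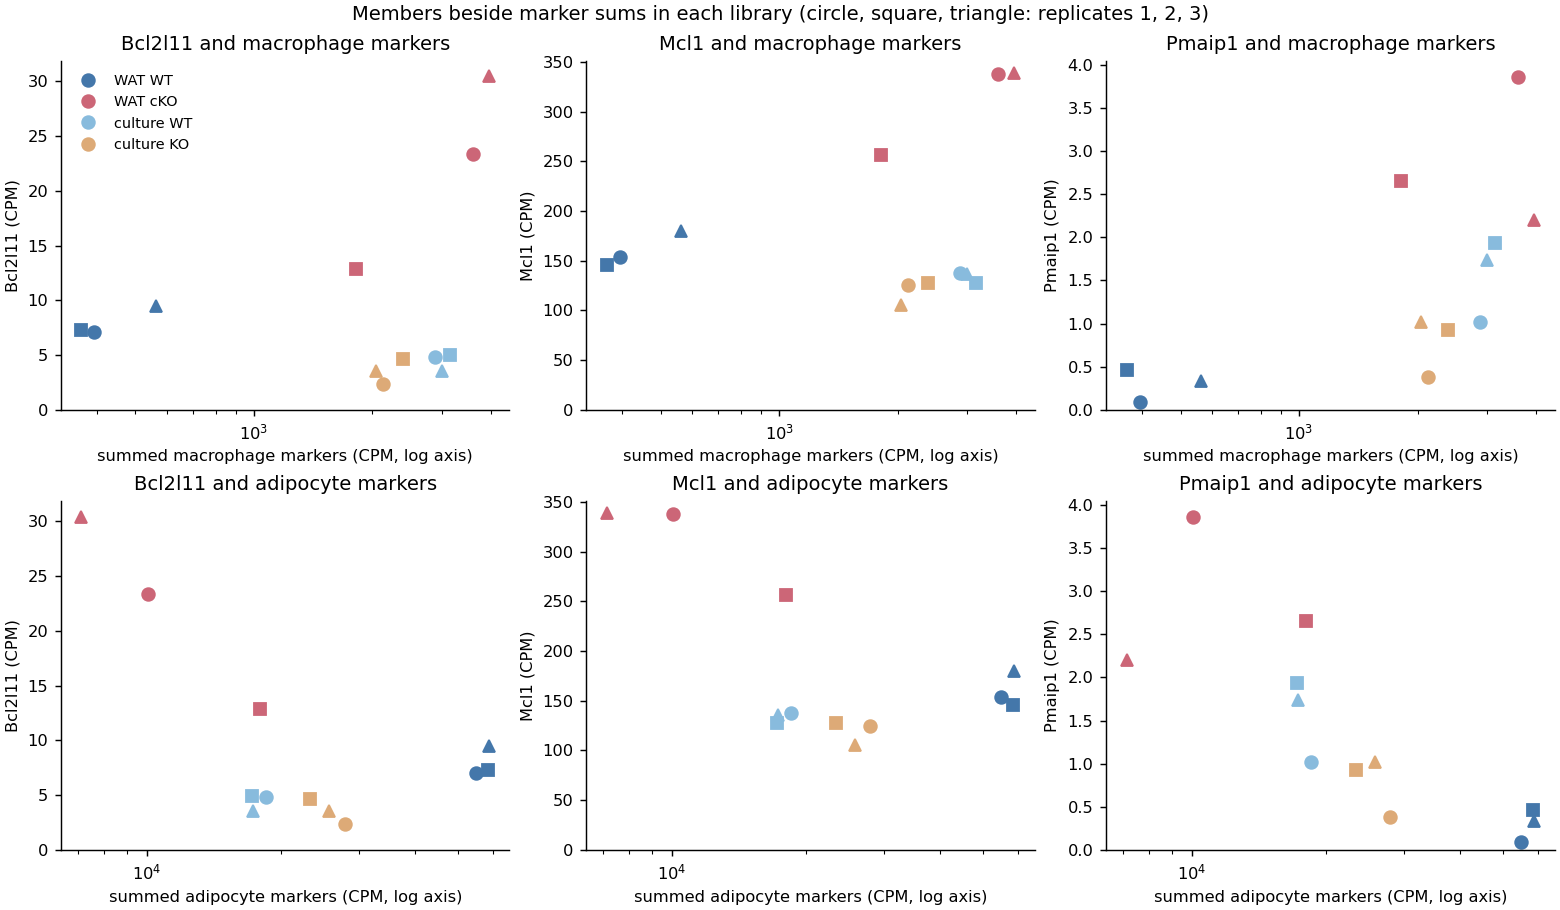
CPM of Bcl2l11, Mcl1 and Pmaip1 (vertical axes) against the summed CPM of macrophage or adipocyte markers (horizontal log axes) in the 12 libraries, with WAT and culture scaled separately. Among cKO WAT libraries, replicate 2 (square) has the fewest macrophage markers, 1815 CPM, and the lowest Bcl2l11 and Mcl1, while culture libraries with 2040 to 3155 CPM of these markers have levels of all 3 members below those of any cKO WAT library.

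In cultured adipocytes, Bak1 and Bcl2l1 were lower in KO than in WT, no member was higher, and 8 of 10 did not pass. The 2 of 10 that fell stand beside 10.6% of 12587 genes tested that fell, and the 0 that rose beside 8.94% that rose. At an unadjusted p under 0.05, edgeR had 0 members higher as well, and DESeq2 and limma voom called 0 higher. The median log2 fold change of the members was -0.23 and that of all genes -0.02. Groups did not overlap for 2 of 10 members, beside 36.8% of all genes tested.

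Bak1 had 69.3, 76.8 and 73.8 CPM in WT cultures and 49.997, 57.4 and 50.5 in KO cultures. The groups did not overlap, and Bak1 fell to 0.719 of WT (log2 -0.48 ± 0.11, adjusted p = 0.00520). Ggnbp1, the gene on its opposite strand, rose by 0.75 in culture. Bcl2l1 had 52.7, 56.4 and 45.5 CPM in WT and 41.3, 41.2 and 36.5 in KO, a fall to 0.769 of WT (log2 -0.38 ± 0.12, adjusted p = 0.0293). Here too every KO library was below every WT library. The Bak1 call was lost without WT replicate 2 (adjusted p = 0.0562), and the Bcl2l1 call without WT replicate 1 (0.0866), WT replicate 2 (0.208), KO replicate 2 (0.0736) or KO replicate 3 (0.115). Both were lost in 1 fit over all 4 groups, where culture shares the wider spread of WAT (0.0650 and 0.116).

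The 3 genes that rose in cKO WAT did not pass in culture, where their fitted changes were below 0. Bcl2l11 had 4.81, 4.96 and 3.56 CPM in WT and 2.35, 4.64 and 3.51 in KO (log2 -0.30 ± 0.25, adjusted p = 0.433). Mcl1 had 138, 127 and 136 CPM in WT and 125, 128 and 106 in KO (log2 -0.16 ± 0.11, adjusted p = 0.307). Pmaip1 had 12, 23 and 22 counts in WT and 4, 20 and 21 in KO, where KO replicate 1 is the smallest library (log2 -0.90 ± 0.40, adjusted p = 0.108). Pmaip1 passed as lower once a trend of length and GC was removed (-1.16, adjusted p = 0.0409). This made 3 of 10 members lower, beside 1334 of 12587 genes. All of these groups overlapped as CPM. Bad had 38.8, 35.5 and 36.2 CPM in WT and 41.3, 39.4 and 33.8 in KO (log2 0.05 ± 0.12, adjusted p = 0.824). Of the others, Bax ran from 69.6 to 98.7 CPM, Bbc3 from 5.70 to 9.94, Bid from 10.5 to 14.4 and Bcl2 from 0.375 to 1.10 over the 6 libraries, with overlapping groups and adjusted p from 0.392 to 0.741. In culture 4 of 8 macrophage markers fell and 4 of 7 adipocyte markers tested rose, beside 10.6% of all genes that fell and 8.94% that rose. The part of these markers' cell types in the falls of Bak1 and Bcl2l1 was not tested.

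**Figure D4:**
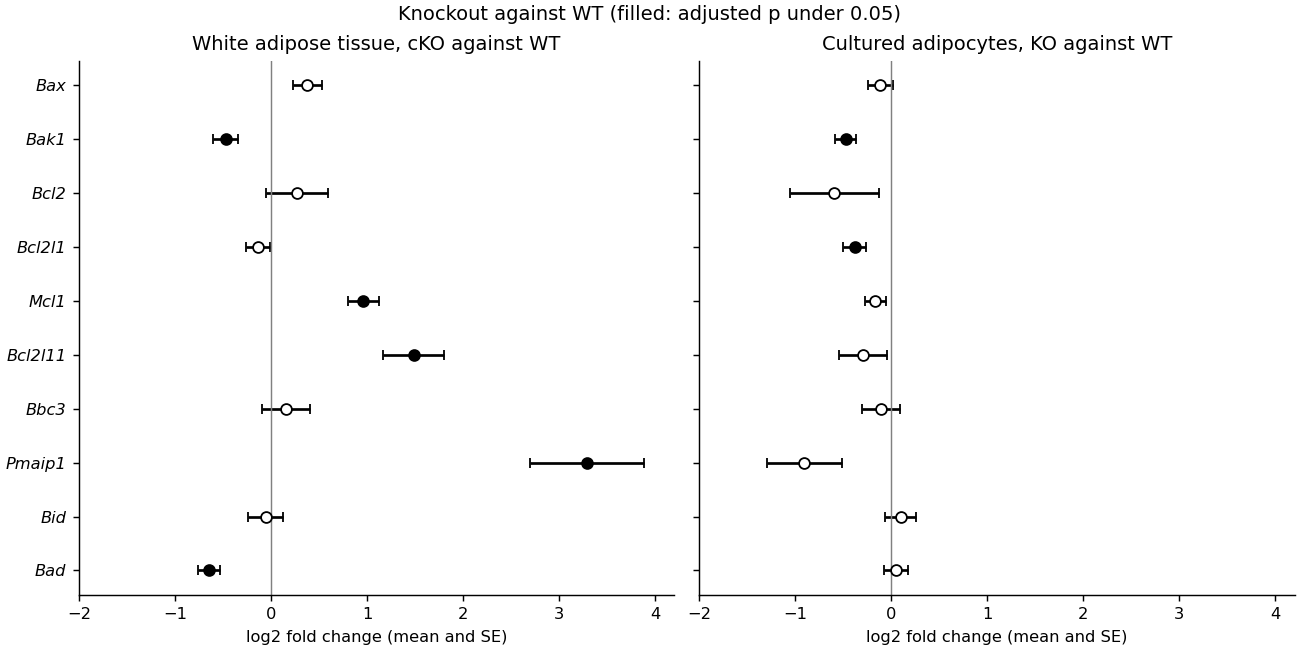
Log2 fold change of knockout against WT (horizontal axis, mean and SE, 3 libraries a group) for each member in WAT (left) and culture (right), filled where adjusted p was under 0.05. Pmaip1, Bcl2l11 and Mcl1 are filled and above 0 in WAT alone. Bax, Bcl2 and Bbc3 are also above 0 in WAT alone but not filled. Bak1 lies at -0.47 in WAT and -0.48 in culture.

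An interaction term, which compares the knockout effect in WAT with that in culture, passed for 4 members. It was 4.28 ± 0.76 for Pmaip1 (adjusted p = 0.000608), 1.84 ± 0.44 for Bcl2l11 (0.00426), 1.16 ± 0.19 for Mcl1 (0.000343) and -0.66 ± 0.16 for Bad (0.00392), in log2 units. The 3 of 10 higher stand beside 27.7% of 14463 genes and the 1 lower beside 21.1%. The differences of Pmaip1, Bcl2l11 and Mcl1 passed under all 20 alternatives, while that of Bad was at -0.01 with library size only and at -0.20 with the trend removed. For Bak1 the difference was 0.04 ± 0.16 (adjusted p = 0.870), and its sign turned without any 1 of 4 libraries. For Bax it was 0.53 ± 0.22 (adjusted p = 0.0679), and it passed under 6 of 20 alternatives, among them library size only (1.18) and the trend removed (0.996). It also passed without WT WAT replicate 2 (adjusted p = 0.0371), cKO WAT replicate 2 (0.0362) or WT culture replicate 3 (0.0323).

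Ratios of counts within a library do not change when the library is scaled as a whole. A trend of length and GC differs by gene and does not cancel in them. The ratios are given as a description, with no test. Bax to Bcl2 was 8.14, 16.8 and 5.99 in WT WAT and 11.5, 7.04 and 11.7 in cKO WAT, with overlap. It was 89.8, 105 and 116 in WT culture and 249, 207 and 79.3 in KO culture, where Bcl2 had only 4 to 18 counts a library. The ratio was thus higher in every culture library than in any WAT library. Bax to Bcl2l1 was 0.613, 0.894 and 0.583 in WT WAT and 1.08, 0.838 and 1.03 in cKO WAT, with 1 WT library inside the cKO range. In culture it was 1.87, 1.72 and 1.62 in WT and 2.26, 2.1002 and 1.90 in KO, with every KO library above every WT library.

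Bcl2l11 to Mcl1 was 0.0460, 0.0497 and 0.0530 in WT WAT and 0.0690, 0.0503 and 0.0898 in cKO WAT. Replicate 2 of the cKO group lay inside the WT range. Bbc3 to Mcl1 was 0.0744, 0.151 and 0.0907 in WT WAT and 0.0626, 0.0684 and 0.0492 in cKO WAT, so that every cKO library was below every WT library. In culture both ratios overlapped between the genotypes.

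**Figure D5:**
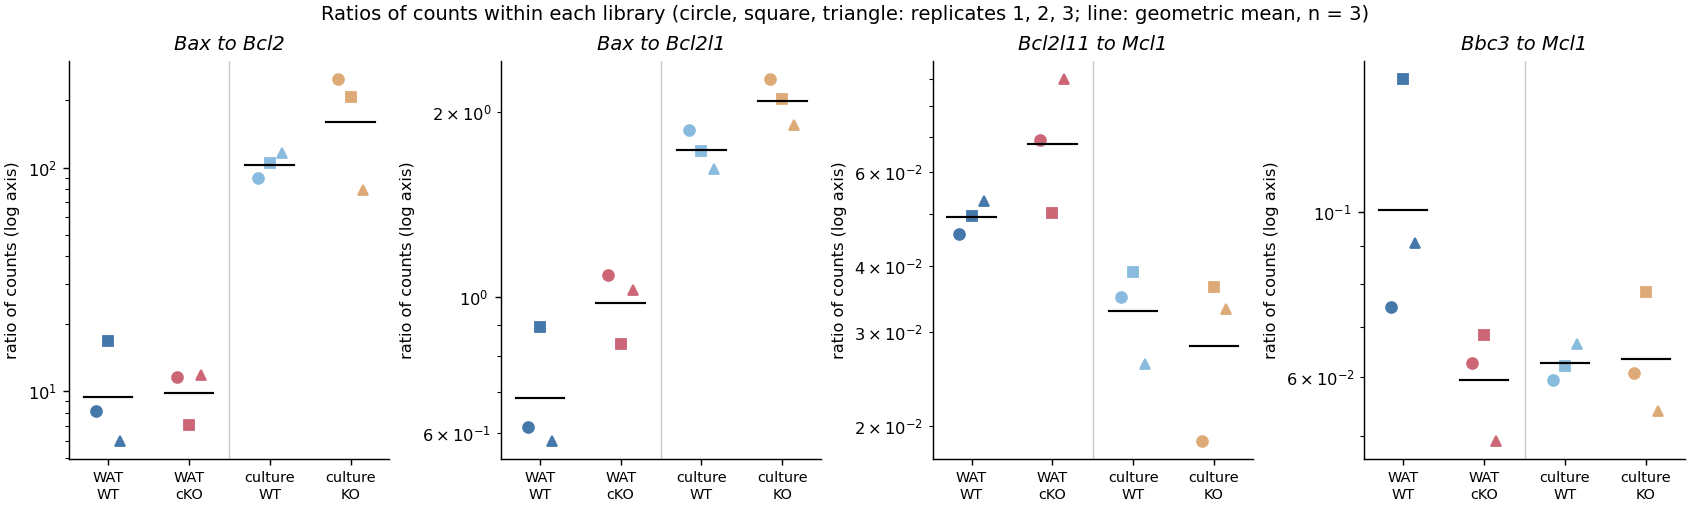
Ratios of counts of 2 members within each library (vertical log axes) in the 4 groups, with the geometric mean of 3 libraries. Bax to Bcl2 and Bax to Bcl2l1 are higher in all culture libraries than in any WAT library, and Bbc3 to Mcl1 is lower in all cKO than in all WT WAT libraries.

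Per kilobase of the longest transcript, Bax and Mcl1 were the 2 highest members in each group. In WT WAT Bax was at 51.1 ± 7.78 CPM per kb (SD, n = 3) and Mcl1 at 46.7 ± 5.13, which overlapped, followed by Bad, Bcl2l1 and Bak1 at 35.2 ± 2.15, 31.9 ± 3.25 and 28.7 ± 2.08, whose neighbouring ranges overlapped as well. In cKO WAT Mcl1 was first at 91.1 ± 13.9 and Bax next at 66.5 ± 7.70, with ranges that all but met and that overlapped by mean transcript length, and in culture Bax was first at 81.7 ± 12.8 in WT and 75.6 ± 11.1 in KO, apart from Mcl1. Bcl2l11, Bcl2 and Pmaip1 took the 3 lowest places in each group. Pmaip1 was last in WT WAT at 0.107 ± 0.0693, and in cKO WAT, at 1.06 ± 0.314, it overlapped with Bcl2 at 1.05 ± 0.235. With all 12 libraries scaled together, Bcl2 was at 6.45 ± 2.20 CPM in WT WAT and 0.988 ± 0.262 in WT culture, groups that did not overlap, and Bax was at 58.2 ± 9.01 and 100 ± 15.7. WAT and culture listed different numbers of features (26639 and 22851). The part of this in such differences, also of the ratios above, was not tested.

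Of 15 other BCL2 family genes, 13 were tested in WAT, where 2 rose and 3 fell, and 10 in culture, where 1 rose and 1 fell. Their medians were 0.22 and -0.11, against 0.12 and -0.02 for all genes. Of all genes tested, 28.2% rose and 24.2% fell in WAT, and 8.94% rose and 10.6% fell in culture. Bcl2a1b, a guardian of blood cells, rose 4.04-fold in WAT, from 3.09 ± 1.67 to 12.5 ± 3.36 CPM (adjusted p = 0.00592), though its reads may be shared with the near-identical Bcl2a1a and Bcl2a1d. Bnip3l, a mitophagy receptor, rose 1.71-fold (adjusted p = 0.00300), and its relative Bnip3 fell from 596 ± 36.6 to 201 ± 116 CPM (adjusted p = 0.0114). In culture Bnip3 instead rose 1.35-fold, from 491 ± 52.9 to 664 ± 41.6 CPM (adjusted p = 0.00980). Bcl2l2, the BCL-w guardian, fell to 0.725 of WT in WAT (adjusted p = 0.0130) and to 0.707 in culture (0.0304), and Bcl2l13 fell to 0.706 in WAT (0.0377). With the length and GC trend removed, Bnip3l and Bcl2l2 lost their calls in WAT and Bnip3 and Bcl2l2 theirs in culture. With library size only, Bnip3, Bcl2l2 and Bcl2l13 lost theirs in WAT. The Bcl2l13 call was lost without any single library other than cKO replicate 2 (adjusted p from 0.0645 to 0.126), and that of Bcl2l2 in WAT without cKO replicate 1 (0.0542). In culture Bcl2l2 lost its call without WT replicate 1 or 2 or KO replicate 1 or 3 (0.0667 to 0.114), and Bnip3 without WT replicate 2 (0.0833).

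Downstream of the members, among 23 genes of the apoptosome, caspases and their inhibitors, 6 rose and 9 fell in WAT (median -0.16), beside 28.2% and 24.2% of all genes. With library size only, 12 rose and 1 fell (median 0.53), beside 8838 and 1427 of 16293 genes (median 0.80). The balance of this list thus moved with that of all genes. Its median was below theirs under both scalings (-0.16 beside 0.12 with TMM, and 0.53 beside 0.80). Endog, a mitochondrial nuclease, fell from 60.7 ± 4.74 to 17.0 ± 2.68 CPM (adjusted p = 0.000490). Apaf1, the scaffold that cytochrome c switches on, rose 3.41-fold (adjusted p = 0.00146), and Birc5, which also serves dividing cells, rose 5.54-fold (0.000742) beside the cell division markers. In culture 5 rose and 0 fell (median 0.15), beside 8.94% and 10.6% of all genes. There Cycs, cytochrome c itself, rose from 383 ± 59.9 to 609 ± 39.0 CPM (adjusted p = 0.000586), Aifm1 rose 1.59-fold (0.000222) and Birc2 rose 1.42-fold (0.00933), a call lost without WT replicate 2 (0.0772). In WAT, Birc2 rose 1.92-fold (0.00338), Aifm1 fell to 0.553 of WT (0.0171) and Cycs did not pass (0.182). The Aifm1 call in WAT was lost with library size only (0.482) and without WT replicate 1 (0.0579) or cKO replicate 1 (0.0610).

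Of 12 death receptor genes and adaptors, 2 rose and 2 fell in WAT, and 1 of 10 tested fell in culture (medians 0.40 and -0.15). Of all genes tested, 28.2% rose and 24.2% fell in WAT, and 8.94% and 10.6% in culture (medians 0.12 and -0.02). In WAT, 8 of the 12 rose and 0 fell with library size only (median 1.07), and 3 rose and 1 fell with the length and GC trend removed (median 0.016). Of 16293 genes, 8838 rose and 1427 fell with library size only, and 3994 and 3462 with the trend removed. Tnfrsf1b, a TNF receptor, rose from 23.3 ± 2.00 to 128 ± 40.6 CPM in WAT (adjusted p = 0.000701) and fell to 0.725 of WT in culture (0.0126). The culture call was lost without WT replicate 1 (0.0619), WT replicate 2 (0.102) or KO replicate 1 (0.0510). Tnfrsf1a fell to 0.643 of WT (0.00826) and the adaptor Fadd to 0.650 (0.0119) in WAT, and with library size only both lost these calls. Tnfrsf1a also lost its call with the trend removed (0.175). In culture Tnfrsf10b and Tradd, next by p, did not pass (adjusted p = 0.104 and 0.186), though Tnfrsf10b did with the trend removed (0.0473).

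Upstream of the members, 15 of 32 regulators tested rose and 7 fell in WAT, against 1 and 10 of 31 in culture, with medians of 0.35 and -0.16. Of all genes, 28.2% rose and 24.2% fell in WAT, and 8.94% and 10.6% in culture. With library size only, 21 regulators rose and 1 fell in WAT (median 1.03), and with the trend removed 14 rose and 6 fell (median 0.089). Of 16293 genes, 8838 rose and 1427 fell with library size only, and 3994 and 3462 with the trend removed. Mdm2, the ligase that degrades p53, rose from 20.9 ± 2.33 to 78.0 ± 7.38 CPM in WAT (adjusted p = 0.000434), its relative Mdm4 rose 1.97-fold (0.000941) and Hif1a rose 2.92-fold (0.00104). In culture Mdm2 had adjusted p = 0.497. There Pim1, a kinase that acts on BAD, fell to 0.587 of WT (0.000493), Rela to 0.737 (0.00845), and Ddit3, the stress factor CHOP, rose 1.43-fold (0.00613). In WAT, Ddit3 rose 4.04-fold (0.00129), Pim1 fell to 0.535 of WT (0.0441) and Rela did not pass (0.251). The Pim1 call in WAT was lost with library size only (0.537) and under several other alternatives. Foxo3, a forkhead factor known to act on Bcl2l11, is among the interaction genes: it rose 2.08-fold in WAT (0.00153) and fell to 0.649 of WT in culture (0.0141). Akt2, a kinase that acts on BAD, fell to 0.310 of WT in WAT (0.00116). In culture the Rela call was lost without WT replicate 2 (0.0980) and the Foxo3 call without WT replicate 1 (0.109) or KO replicate 1 (0.0635). With the length and GC trend removed, Foxo3 (0.108) and Ddit3 (0.153) lost their calls in culture. In the fit over all 4 groups, each culture call named here outside the members was lost (adjusted p from 0.0730 to 0.416).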

How the data were processed

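RNA was extracted with TRIzol and libraries were made with an MGIEasy mRNA kit, per the labels' protocols. The values deposited are whole read counts by gene, not normalized, in a table for WAT and one for culture. Tools in the submitters' processing notes are HISAT2 2.1.0, cutadapt 1.11 and FastQC 0.11.2, with the build GRCm38. How reads were counted, and on which strand and annotation, is not given in the sources used here. All 12 sample columns were used. No pair of libraries in a group agreed within sampling noise (a chi-square of 4.81 to 202 per degree of freedom), so none counts as a duplicate.

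The main test was the quasi-likelihood F test in edgeR 4.0.16, run for WAT and culture separately on 6 libraries each (R 4.3.3), with TMM-scaled counts of genes kept by filterByExpr (minimum count 10). The interaction was fitted on 12 libraries and the 21669 genes in both tables. Adjusted p is Benjamini-Hochberg over all genes tested, with a threshold of 0.05, and the SE is the size of the log2 fold change over the square root of F. Levels are TMM-scaled CPM, per table. The biological coefficient of variation was 0.319 for WAT and 0.114 for culture. Alternatives were other scalings, no filter, the replicate block, each library left out, DESeq2 1.42.0, limma 3.58.1 voom, a length and GC trend removed (values for 91.1% of WAT and 98.0% of culture genes), numbered copies summed and 1 fit over all groups. Coordinates and lengths are from GENCODE M21 (GRCm38).

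The members and lists were chosen with earlier results of these data known. The named genes are all members, Fam50a, any other BCL2 family gene, and the 3 genes with the smallest p of each other list in each comparison. The values of overlapping partner genes were added after the members' values were seen.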

Additional observations from a re-analysis of the deposited data

Results flagged for a closer look

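The effect of the knockout differed between tissue and culture by the interaction test of edgeR (adjusted p under 0.05) for 21 of the named genes. The values are the log2 fold change in WAT minus that in culture. Among the members they were Pmaip1 4.28, Bcl2l11 1.84, Mcl1 1.16 and Bad -0.66. Among other BCL2 family genes they were Bcl2a1b 2.42, Bnip3l 0.53 and Bnip3 -1.97. Bnip3, Aifm1, Tnfrsf1b and Foxo3 were each called in opposite directions in the 2 settings. Downstream, Apaf1 and Birc5 were at 2.096 and 2.34, and the mitochondrial proteins Cycs, Aifm1 and Endog were at -1.16, -1.496 and -2.01. Among death receptor genes they were Tnfrsf1b 2.96, Tnfsf10 2.43 and Tnfrsf1a -0.56. Among regulators they were Mdm2 2.06, Foxo3 1.72, Ddit3 1.52, Hif1a 1.499, Mdm4 0.87 and Akt2 -1.62. Some of these calls did not hold under the alternatives. Tnfsf10 was below the filter on low counts in culture, at means of 0.413 CPM in WT and 0.0937 in KO. Its change in WAT did not pass (edgeR adjusted p = 0.200). Tnfsf10 lost its call with limma voom (adjusted p = 0.132), the trend of length and GC removed (0.0842), or without WT culture replicate 1 (0.0703), WT culture replicate 3 (0.0532), KO culture replicate 1 (0.0515) or KO culture replicate 3 (0.0795). Tnfrsf1a turned to 0.096 with library size only, and lost its call with the trend removed (0.210) or without WT WAT replicate 2, cKO WAT replicate 3, WT culture replicate 3 or KO culture replicate 1 (0.0543 to 0.0592). Bnip3l lost its call with the trend removed (0.26, adjusted p = 0.113) or without WT WAT replicate 2 or 3, cKO WAT replicate 1, WT culture replicate 3 or KO culture replicate 1 (0.0518 to 0.0586). Mdm4 lost its call with the trend removed (0.177), and Cycs and Bad with library size only (0.200 and 0.981), Bad also with the trend removed (0.285). WAT and culture also differ in age, cell makeup and marker levels, so tissue and culture as such cannot be told apart from these. Groups of 3 libraries were not searched for single outlying samples.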

How the results depend on the processing

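The rises of Bcl2l11, Mcl1 and Pmaip1 in WAT, and their interactions, kept direction and call under each alternative run. Over all members, 130 of 150 log2 fold changes in WAT, 135 of 150 in culture and 180 of 200 for the interaction kept both. Scaling by library size only gave 8 members higher and 0 lower in WAT, and turned Bak1 to 0.21, Bcl2l1 to 0.54, Bid to 0.62 and Bad to 0.034 there. The same scaling turned Bad to -0.0090 in culture. For the interaction it gave 8 members higher and 0 lower, beside 7331 and 1198 of 14463 genes, and Bid at 0.53. This scaling, which has no correction for composition, called 8838 genes higher and 1427 lower in WAT, against 4595 and 3947 with TMM. With the length and GC trend removed, WAT had 4 members higher and 0 lower, beside 3994 and 3462 of 16293 genes. Bcl2 was then at -0.11, Bcl2l1 at 0.23 and Bid at 0.25 in WAT, and Bbc3 at 0.040 in culture. The interaction with the trend removed had 5 members higher and 0 lower, beside 3734 and 2873 of 14463 genes, and Bid at 0.20. One fit over all groups called 146 genes and 0 members lower in culture, where 2459 genes were called on its own libraries. The cause of these changes was not tested.

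With the replicate number as a block, WAT had 1 member lower (Bak1 lost its call), Pmaip1 was also lower in culture (-0.99, adjusted p = 0.0495), Bax was also called in the interaction (adjusted p = 0.0426), Tnfsf10 lost its interaction call (0.0621), Tradd was called in culture (0.0407), and 3824 genes were called in culture. The numbers were not taken as pairs, because deviations of same-numbered libraries correlated across genes at -0.33, 0.03 and -0.23 in WAT and at 0.18, 0.03 and 0.24 in culture, and WT replicate 2 in culture correlated best with KO replicate 1.

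Without 1 library in turn, members lower in WAT ranged from 1 to 2 and in culture from 0 to 2, and genes called in culture from 897 (without WT replicate 2) to 3380 (without WT replicate 3). The sign turned within these ranges: in WAT for Bbc3 (-0.059 to 0.41) and Bid (-0.22 to 0.080), in culture for Bax (-0.23 to 0.0024), Bbc3 (-0.35 to 0.086), Bid (-0.013 to 0.17) and Bad (-0.0091 to 0.13), and for the interaction for Bak1 (-0.041 to 0.11) and Bid (-0.25 to 0.056). Ranks per kb by mean transcript length exchanged Bad with Bcl2l1 in WT WAT and Bcl2 with Pmaip1 in cKO WAT. Low counts limit Pmaip1 and, in culture, Bcl2.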
